A study of Mus musculus with 6 samples.

Results

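Postsynaptic scaffold and synapse adhesion genes, 41 in all, were compared between sorted cortical neural progenitors and sorted neurons labelled as neuronal progeny. The members were fixed by gene symbol, and for each the probe set annotated to that symbol alone was taken, or, where there were several, the brightest on average over the 6 arrays. All 41 were measured, out of 19938 genes in the series. RNA came from brain cells of C57BL/6J mice sorted by fluorescence with a dual reporter. One group was 3 samples of GFP+ cells, labelled cortical neural progenitors. The other was 3 samples of RFP+ cells, labelled as differentiated neuronal progeny and given only the brain as their tissue. The labels state neither the animals' age nor the promoters of the reporters, nor how many animals a sample came from. The p-values therefore measure only the spread between these samples, which may be technical.

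At an excitatory synapse the receptors are held under the membrane by a layered protein scaffold. Membrane-associated guanylate kinases (MAGUKs, the Dlg genes) bind receptor tails, Dlgap proteins connect them to Shank proteins, and Shank proteins meet Homer and the actin cytoskeleton. Adhesion proteins such as neuroligins, LRRTMs and SLITRKs reach across the cleft to presynaptic neurexins or receptor tyrosine phosphatases. These genes are best known from mature neurons, whereas newborn cortical neurons are still migrating and extending processes. The labels, which give no age, do not place the RFP+ neurons at either stage.

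Most of these genes were higher in RFP+ neurons. At an adjusted p under 0.05, neurons had the higher level for 28 of the 41 members and progenitors for 3, and 10 members did not pass. Over all 19938 genes 16.2% passed with the higher level in neurons and 13.8% with the higher level in progenitors. Differences are progenitors minus neurons after adding 16 to each intensity and taking log2, so a negative value means a higher level in neurons. Folds come from the same scale and are too small for dim genes. The median log2 difference of the members was -0.87, with quartiles of -1.59 and -0.40, against a median of -0.08 over all genes. At least a 2-fold higher level in neurons was found for 18 members (5.98% of all genes) and in progenitors for 1, Arc (7.00% of all genes). The 3 arrays of a group lay entirely above or below those of the other for 36 members, 30 with neurons above and 6 with progenitors above. Over all genes 43.9% did not overlap in this way (24.1% with neurons above and 19.9% with progenitors above). The 20 adhesion members and the 21 scaffold and adaptor members each held 14 that were higher in neurons, with medians of -1.09 and -0.77.

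**Figure D1:**
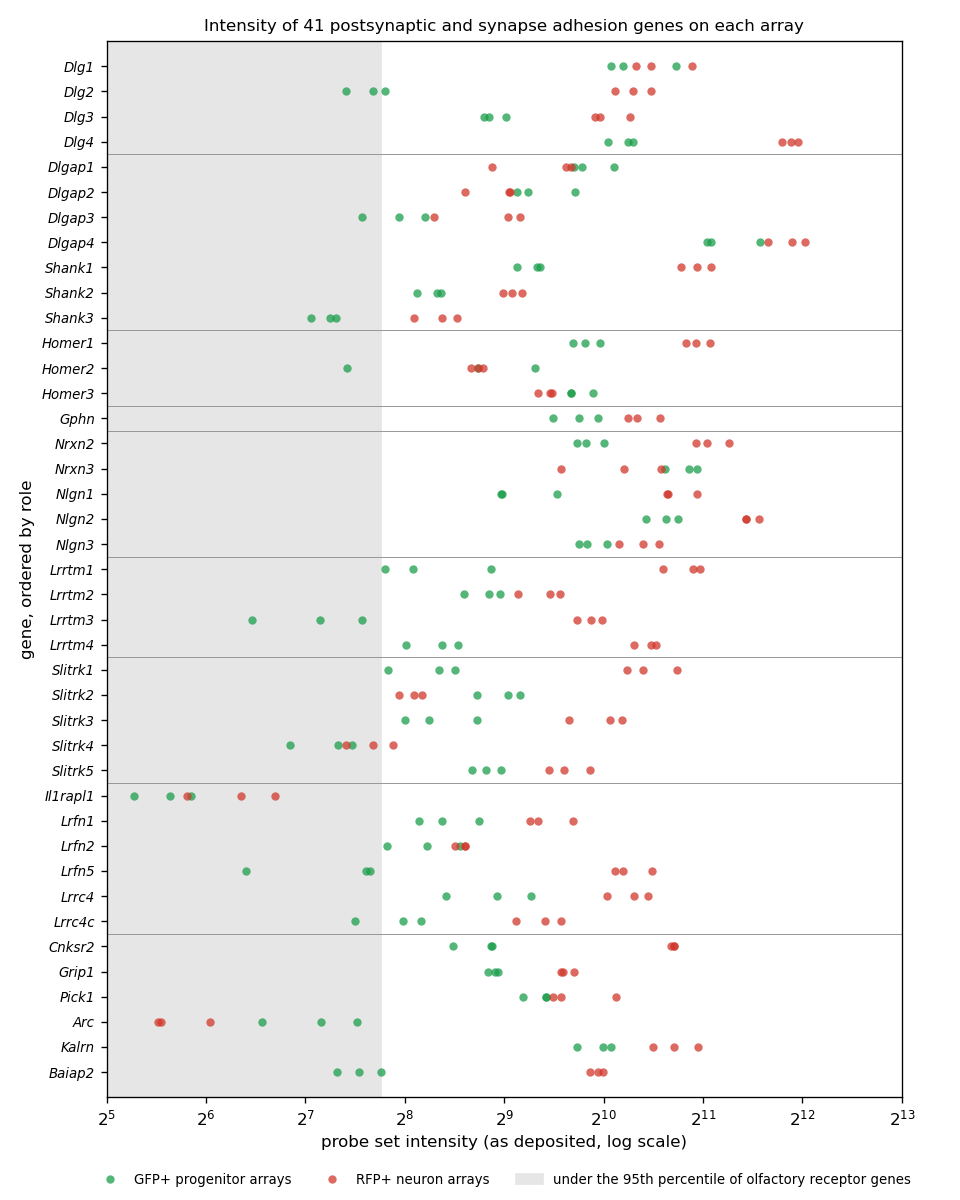
Intensity of the 41 genes on each array (log axis), 1 row per gene, grouped by role between the horizontal lines; green points are the 3 GFP+ progenitor arrays, red points the 3 RFP+ neuron arrays, and the grey band is the near-background range set by olfactory receptor genes. Red points lie to the right of green for most genes, and to the left for Nrxn3, Slitrk2 and Arc, and for Dlgap1, Dlgap2 and Homer3, which did not pass.

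The sorted populations carried the markers of their labels. All 10 markers listed for radial glia, which include the proliferation genes Mki67 and Top2a, were higher in GFP+ arrays. All 11 measured neuron markers were higher in RFP+ arrays (median log2 differences 2.36 and -1.67). The summed intensity of the neuron markers was 26585 to 31479 on the GFP+ arrays and 71777 to 78454 on the RFP+ arrays, so neuronal transcripts were present on both. That of the radial glia markers was 47464 to 48411 on the GFP+ arrays and 10684 to 11684 on the RFP+ arrays, so these transcripts too were present on both. Endothelial markers (7 of 7, summed 1569 to 5580 in GFP+ and 593 to 829 in RFP+), pericyte and mural markers (6 of 7, 4288 to 5989 and 995 to 1125), oligodendrocyte lineage markers (4 of 6, 1512 to 2296 and 588 to 817) and meningeal fibroblast markers (2 of 5, 936 to 1122 and 583 to 708) were also higher in GFP+ arrays. Near background means here that a group mean was below what 95% of the 1027 olfactory receptor genes stayed under, 216.9 in GFP+ and 210.7 in RFP+. Of the 10 radial glia markers Hes1 alone was near background in RFP+. None of the 8 microglia and macrophage markers passed, and 5 of them were near background in both groups. Of the inhibitory neuron markers 2 of 7 were higher in GFP+ arrays, with sums of 10180 to 11486 there and of 10599, 7297 and 4564 on RFP+ replicates 1, 2 and 3. No marker was at 0 on any array. The part of these markers in the members' differences was not tested. In sorted bulk RNA, fewer cells that express a gene and less of its RNA per cell cannot be told apart.

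Among the MAGUK scaffolds, Dlg2, Dlg3 and Dlg4 were higher in neurons and Dlg1 did not pass. Dlg2 encodes PSD-93, a partner of NMDA receptors. Its intensity was 170.1, 204 and 222 on GFP+ replicates 1 to 3 and 1109, 1258 and 1429 on RFP+ replicates 1 to 3, log2 difference -2.58 ± 0.21 SE, 5.96-fold, adjusted p = 1.18e-08. All GFP+ values of Dlg2 were far under the lowest RFP+ value, and their mean of 199 was near background. Dlg4, which encodes PSD-95, the central scaffold of excitatory synapses, had 1052, 1218 and 1254 in progenitors and 3547, 3782 and 3961 in neurons, log2 difference -1.67 ± 0.20 SE, 3.18-fold, adjusted p = 1.61e-06. Dlg3 encodes SAP102 and had 520, 461 and 445 in progenitors against 1233, 961 and 996 in neurons, log2 difference -1.13 ± 0.20 SE, 2.19-fold, adjusted p = 2.11e-04. For both genes the progenitor arrays lay well above background and still did not reach the neuron arrays. Dlg1 encodes SAP97, which is also found at epithelial junctions. It had 1175, 1080.4 and 1692 in progenitors and 1420, 1283 and 1895 in neurons, and the groups overlapped (log2 difference -0.23 ± 0.23 SE, 1.17-fold, adjusted p = 0.472). In each of the 3 same-numbered pairs the neuron array was higher for Dlg1, and blocked on the replicate number the difference still did not pass (adjusted p = 0.259). The 95% interval of its log2 difference, -0.70 to 0.25, lay above those of the other MAGUK genes, which ended at -2.15 for Dlg2, -0.71 for Dlg3 and -1.26 for Dlg4; the difference between these genes was not itself tested.

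The Shank genes, whose proteins bridge the Dlgap layer and Homer, were all higher in neurons on the probe sets used. Shank1 had 644, 655 and 559.7 in progenitors and 1966, 2159 and 1758 in neurons, log2 difference -1.64 ± 0.20 SE, 3.11-fold, adjusted p = 2.39e-06. Shank3 had 133, 152 and 159 in progenitors and 332, 368 and 273 in neurons, log2 difference -1.05 ± 0.20 SE, 2.07-fold, adjusted p = 4.88e-04, with its progenitor mean near background. Neither gene's groups overlapped. Shank2 was 1.72-fold higher in neurons (309 ± 26.8 against 543 ± 37, SD, n = 3 each, adjusted p = 0.0048), but its other probe sets went the opposite way.

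The Dlgap genes, whose proteins bind MAGUKs on one side and Shank on the other, were split between 2 that were higher in neurons and 2 that did not pass. Dlgap4 (2441 ± 532 in progenitors and 3733 ± 478 in neurons) and Dlgap3 (243 ± 51.7 and 469.9 ± 138) were the higher ones, at 1.54-fold and 1.84-fold (adjusted p = 0.0338 and 0.00824). The call of Dlgap4 was lost with an offset of 1 in place of 16 (adjusted p = 0.0584) and without any 1 of 4 arrays (GFP+ replicates 2 and 3, RFP+ replicates 1 and 2; adjusted p up to 0.139), and that of Dlgap3 without RFP+ replicate 2 (adjusted p = 0.0518). Dlgap1 (937 ± 143 and 691 ± 193) and Dlgap2 (667 ± 148 and 484 ± 81.1) had log2 differences of 0.46 and 0.44 and did not pass (adjusted p = 0.141 and 0.135), although every GFP+ value lay above every RFP+ value. Both were lowest on RFP+ replicate 3, where the inhibitory neuron markers were lowest too. Among the GFP+ arrays those markers were highest on replicate 2, while both genes were highest on replicate 1. The part of inhibitory neurons was not tested.

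Homer proteins join Shank to group I metabotropic glutamate receptors. Homer1 was higher in neurons, with 829, 898 and 997 in progenitors and 2148, 1822 and 1946 in neurons, log2 difference -1.11 ± 0.20 SE, 2.15-fold, adjusted p = 2.24e-04. Homer3 had 952, 816 and 815 in progenitors and 646, 716 and 706 in neurons. Its values were a little higher in progenitors without overlap, but the difference did not pass (log2 difference 0.31 ± 0.20 SE, 1.24-fold, adjusted p = 0.245). Homer2 had 170.5, 632 and 427 in progenitors and 405, 441 and 426 in neurons, so GFP+ replicate 1 was far under the other progenitor arrays and the groups overlapped (log2 difference -0.22 ± 0.31 SE, 1.17-fold, adjusted p = 0.615). Without that array the sign turned (0.28, adjusted p = 0.375). Gphn encodes gephyrin, the scaffold that clusters glycine and GABA receptors at inhibitory synapses. It was 1.56-fold higher in neurons (855 ± 134 against 1343 ± 155, adjusted p = 0.0229). This call was lost when GFP+ replicate 1 was left out (adjusted p = 0.0856), and likewise for replicate 2 or 3 of the neurons (0.0532 and 0.0973).

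Neurexins and neuroligins form the best known trans-synaptic pair. The presynaptic partners differed in direction. Nrxn2 had 904, 1027 and 853 in progenitors and 2099.6, 2453 and 1950.4 in neurons, log2 difference -1.21 ± 0.20 SE, 2.31-fold, adjusted p = 1.00e-04. Nrxn3 had 1956, 1565 and 1863 in progenitors and 1528, 1182 and 759 in neurons, log2 difference 0.68 ± 0.24 SE, 1.60-fold, adjusted p = 0.0377. Every neuron array was higher for Nrxn2, and every progenitor array for Nrxn3, where the closest values were 1565 and 1528. The Nrxn3 values in neurons had the same order as the inhibitory neuron marker sums of those arrays, 10599, 7297 and 4564. Among the progenitor arrays the order was not the same. The sums there were 10315, 11486 and 10180, and Nrxn3 was lowest on replicate 2, where the sum was highest. The part of inhibitory neurons in the difference was not tested. The Nrxn3 call was lost with an offset of 1 (adjusted p = 0.0797), with array weights (0.0853) and without GFP+ replicate 1 or 3 or RFP+ replicate 2 or 3 (adjusted p of 0.0598 to 0.236).

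On the postsynaptic side, Nlgn1, a neuroligin of excitatory synapses, had 504, 501 and 741 in progenitors and 1598, 1607 and 1969 in neurons, log2 difference -1.56 ± 0.22 SE, 2.94-fold, adjusted p = 1.10e-05. Nlgn2, the neuroligin of inhibitory synapses, was 1.83-fold higher in neurons (1559 ± 170 against 2850 ± 155, adjusted p = 0.0022). Nlgn3, which is found at both kinds of synapse, had 941 ± 95.2 and 1332 ± 187. Its groups did not overlap, yet the difference did not pass (log2 difference -0.49, adjusted p = 0.0776). Blocking on the replicate number brought Nlgn3 past the threshold (adjusted p = 0.0398). So did an offset of 64 (0.0344), leaving out the dimmest 30% of genes (0.0459) and robust moderation with an intensity trend (0.0435).

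All 4 LRRTM genes, which encode leucine-rich repeat proteins of excitatory postsynapses, were higher in neurons. Lrrtm3 had 88.3, 142 and 189.6 in progenitors, near background, and 939, 850.4 and 1013 in neurons, log2 difference -2.66 ± 0.24 SE, 6.32-fold, adjusted p = 4.14e-08. Lrrtm1 had 222, 466 and 271 in progenitors and 1912, 2007 and 1547 in neurons, log2 difference -2.51 ± 0.24 SE, 5.69-fold, adjusted p = 1.31e-07. Lrrtm4 had 258, 372 and 332 in progenitors and 1427, 1474 and 1261 in neurons, log2 difference -2.07 ± 0.21 SE, 4.20-fold, adjusted p = 1.87e-07. In these 3 genes the lowest neuron array exceeded the highest progenitor array by a wide margin. Lrrtm2, a neurexin ligand like Lrrtm1, differed less (448 ± 55.8 against 674 ± 99.6, 1.49-fold, adjusted p = 0.043), and its 95% interval of -1.0 to -0.14 did not overlap those of the other LRRTM genes, though the difference between genes was not itself tested. Its call was lost with an offset of 1 (adjusted p = 0.0592) and without GFP+ replicate 1 or 2 or RFP+ replicate 1 or 3 (adjusted p of 0.0650 to 0.152).

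SLITRK proteins bind presynaptic receptor tyrosine phosphatases. Slitrk1 had 228, 364 and 324 in progenitors and 1352, 1711 and 1205 in neurons, log2 difference -2.17 ± 0.22 SE, 4.51-fold, adjusted p = 2.49e-07. Slitrk3, known from inhibitory synapses, had 257, 424 and 304 in progenitors and 1067, 1162 and 801 in neurons, log2 difference -1.59 ± 0.23 SE, 3.01-fold, adjusted p = 1.60e-05. Slitrk5 was 1.74-fold higher in neurons (454 ± 45.7 against 804 ± 118, adjusted p = 0.0053). Slitrk2 was the SLITRK gene that passed in the other direction on the probe set used, with 572, 527 and 424 in progenitors and 246, 289 and 272 in neurons (log2 difference 0.87 ± 0.20 SE, 1.83-fold, adjusted p = 0.00264). Slitrk4 was near background in both groups (151 ± 32 and 203 ± 32.7) and did not pass (adjusted p = 0.167).

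**Figure D2:**
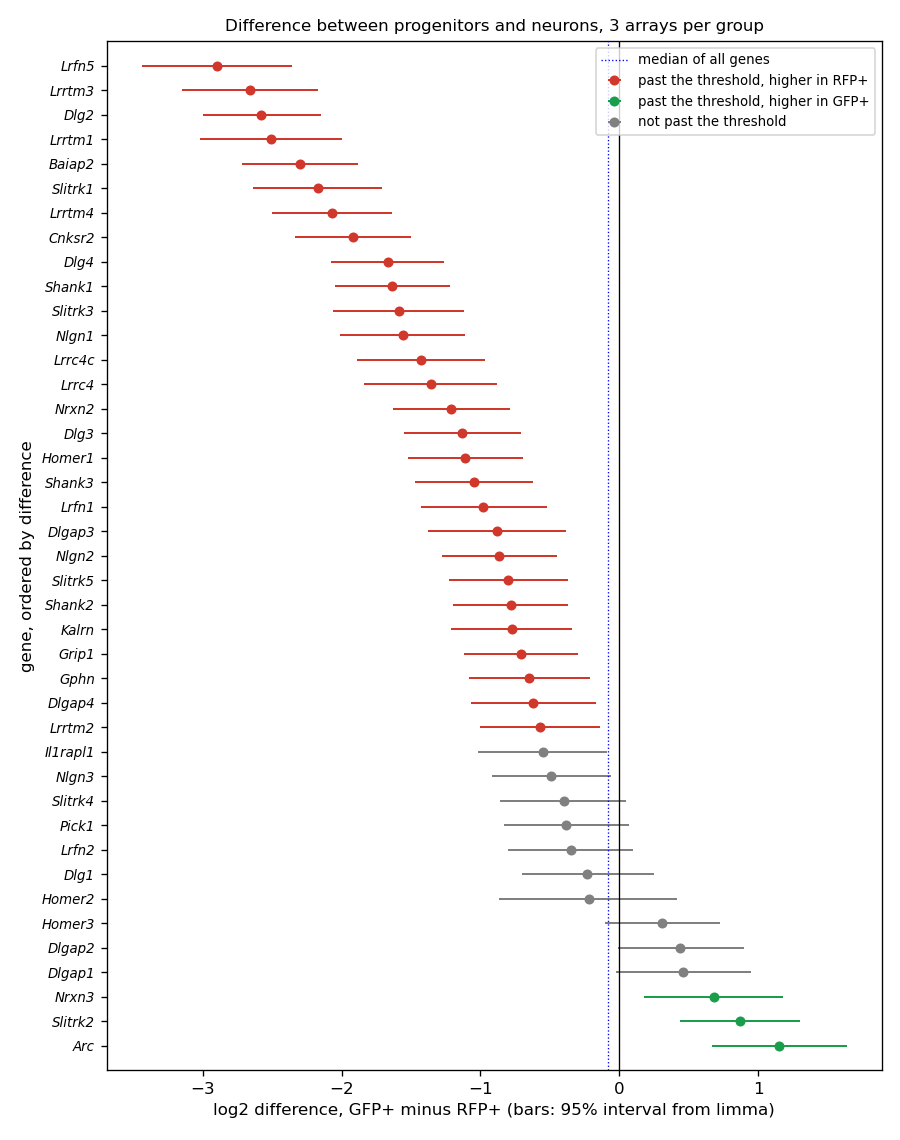
Log2 difference (GFP+ minus RFP+) of each member with its 95% interval from limma, ordered by size, for 3 arrays per group; red marks genes higher in RFP+ neurons, green those higher in GFP+ progenitors, grey those that did not pass, and the dotted line is the median of all genes (-0.08). The differences run from -2.90 for Lrfn5 to 1.15 for Arc.

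Of the 6 other adhesion members, 4 were higher in neurons and 2 did not pass. Lrfn5, a synaptic adhesion-like molecule, had the lowest difference of the 41 members. Its intensities were 84.8, 200.4 and 195 in progenitors and 1430.5, 1111 and 1169 in neurons, log2 difference -2.90 ± 0.26 SE, 7.48-fold, adjusted p = 4.39e-08. The progenitor values were near background and the neuron values were not. Lrrc4 and Lrrc4c encode netrin-G ligands. Lrrc4 had 487, 619 and 342 in progenitors and 1266, 1394 and 1049 in neurons, log2 difference -1.36 ± 0.23 SE, 2.56-fold, adjusted p = 1.10e-04. Lrrc4c had 180.4, 252 and 286 in progenitors and 555, 763 and 679 in neurons, log2 difference -1.43 ± 0.22 SE, 2.69-fold, adjusted p = 3.89e-05. Both were higher on every neuron array than on any progenitor array. Lrfn1, which binds PSD-95, was 1.97-fold higher in neurons (347 ± 73.6 against 695 ± 117, adjusted p = 0.00164). Lrfn2 had 377, 299 and 226 in progenitors and 389.6, 389.9 and 363 in neurons, and its groups overlapped (log2 difference -0.35 ± 0.21 SE, 1.28-fold, adjusted p = 0.228). The neuron array was higher in each same-numbered pair, and blocked on the replicate number the adjusted p was 0.135. Il1rapl1, a ligand of a presynaptic phosphatase, was near background in both groups (48.8 ± 9.5 and 80.4 ± 23.8) and did not pass (adjusted p = 0.0683). It passed when the fit was blocked on the replicate number (adjusted p = 0.0225), with array weights (0.0492) and without RFP+ replicate 2 (0.0294).

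Of the adaptors and spine regulators, Baiap2 and Cnksr2 differed most in the direction of neurons. Baiap2 encodes IRSp53, which connects Rac and Cdc42 signals to actin. It had 186, 159 and 216 in progenitors, with a mean near background, and 1019, 983 and 929 in neurons, log2 difference -2.30 ± 0.20 SE, 4.92-fold, adjusted p = 3.82e-08. Cnksr2, a scaffold of Ras signalling that binds PSD-95, had 358, 471 and 467 in progenitors and 1676, 1642 and 1673 in neurons, log2 difference -1.92 ± 0.20 SE, 3.78-fold, adjusted p = 3.46e-07. Its 3 neuron values lay close together, with an SD of 18.8 about a mean of 1664. Kalrn, a regulator of dendritic spines (985 ± 118 against 1700 ± 268), and Grip1, a PDZ adaptor of AMPA receptors (476 ± 17.5 against 788 ± 37.9), were 1.71-fold and 1.63-fold higher in neurons (adjusted p = 0.00758 and 0.00906). The Kalrn call was lost without RFP+ replicate 2 (adjusted p = 0.0527). Pick1, another PDZ protein that binds AMPA receptors, had 652 ± 59.2 and 866 ± 220 and did not pass (adjusted p = 0.197).

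Arc, an activity-induced gene whose protein takes part in AMPA receptor removal, was higher in progenitors. Its intensities were 143, 183 and 94.4 in progenitors and 66, 46.6 and 45.8 in neurons, log2 difference 1.15 ± 0.23 SE, 2.23-fold, adjusted p = 6.72e-04. The groups did not overlap, but all 6 values lay in the range of the olfactory receptor genes. The Arc difference is therefore between 2 dim signals. It was 1.36 with an offset of 1 and 0.79 with an offset of 64.

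For 4 members the array carried more than 1 probe set, and these did not always agree. On the Shank2 probe set with the highest mean, which was annotated to 2 curated transcripts, intensities were 319, 329 and 279 in progenitors and 581, 507 and 541 in neurons. The other Shank2 probe sets were each annotated to 1 transcript record and no curated transcript. They had 291, 389.9 and 326 against 165, 209 and 158 (log2 difference 0.86 ± 0.21 SE, adjusted p = 0.00334 over 21789 probe sets) and 240.4, 270.4 and 206 against 125, 167 and 129 (0.71 ± 0.21, adjusted p = 0.0135). These probe sets were higher on all progenitor arrays, so the direction of Shank2 depended on the probe set. Slitrk2 was also split. Its used probe set was higher in progenitors, and the other, annotated to the same 2 curated transcripts, had 54.4, 136 and 194 in progenitors and 174, 234 and 281 in neurons (log2 difference -0.88 ± 0.30, adjusted p = 0.0328), where the groups overlapped. The Homer2 probe set not used was higher in progenitors, at 402, 484 and 534 against 276, 328 and 270.2 (0.67 ± 0.20, adjusted p = 0.018), without overlap, while the used one did not pass. For Dlgap1 neither probe set passed. The one used was annotated to 3 transcript records and no curated transcript, and the other, annotated to 4 curated transcripts, had a log2 difference of 0.20 ± 0.25 (adjusted p = 0.581). Averaged over probe sets, Shank2 had a log2 difference of 0.26 and Slitrk2 of -0.01, and neither passed (adjusted p = 0.328 and 0.985).

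**Figure D3:**
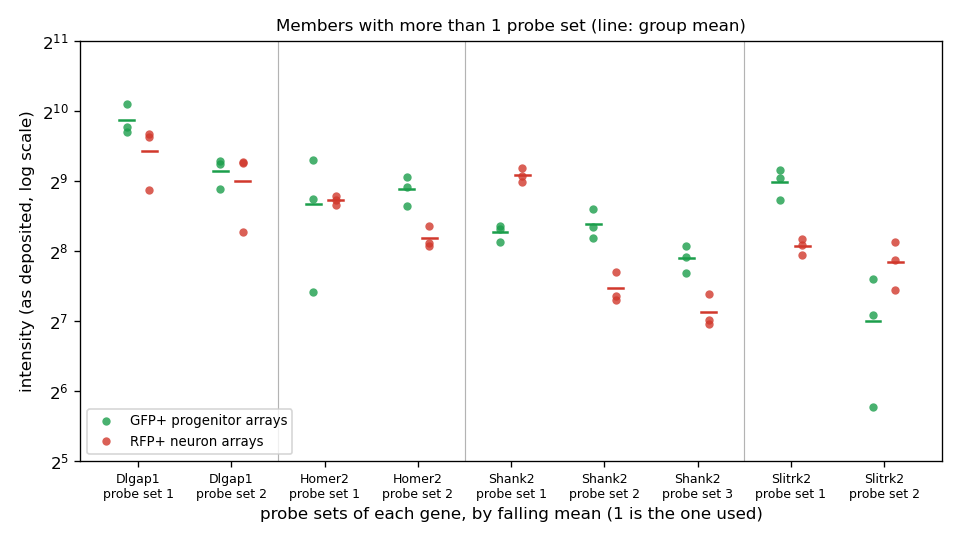
Intensity (log axis) on each array of all probe sets of the 4 members that have several, ordered within a gene by falling mean, with probe set 1 the one used; green points are GFP+ arrays, red points RFP+ arrays and short lines group means. For Shank2, Slitrk2 and Homer2 the order of the group means turns between probe sets 1 and 2. For Homer2 the difference on probe set 1 did not pass.

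Single members differed between arrays of a group, and Homer2, Lrfn5, Lrrtm3 and Lrrtm1 did so by over 2-fold among the progenitors. The median deviation of the 41 genes from their group mean was -0.05, 0.07 and 0.05 (log2) on GFP+ replicates 1, 2 and 3, and 0.01, 0.08 and -0.06 on RFP+ replicates 1, 2 and 3. The lowest progenitor value came from GFP+ replicate 1 for 18 members, among them Lrrtm3, Lrfn5 and Homer2, and the lowest neuron value from RFP+ replicate 3 for 20. Over the 28 members that were higher in neurons, GFP+ replicate 1 lay lowest at -0.13. These medians take deviations of both signs together, so they describe a shift of the whole list and not the spread of single genes.

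Promoter sequences are shown for the 4 members with the largest difference toward neurons among those with 1 listed start (Lrfn5, Lrrtm3, Lrrtm1 and Baiap2). They let the sequence before genes that differed in the same direction be read. Both starts of Slitrk2 are also shown, a gene whose direction depended on the probe set. RefSeq's table for GRCm38.p6 held 31 of the 41 members, with 51 starts. Each line gives the 250 bases before the start, with matches to CAGATG (an E-box of neuronal basic helix-loop-helix factors), CAGCTG (another E-box), TATAAA (the TATA box) or TGACGTCA (the cyclic AMP response element) on either strand in capitals. None of these motifs overlap in the windows shown.
Lrfn5, chr12:61522917-61523166, + strand: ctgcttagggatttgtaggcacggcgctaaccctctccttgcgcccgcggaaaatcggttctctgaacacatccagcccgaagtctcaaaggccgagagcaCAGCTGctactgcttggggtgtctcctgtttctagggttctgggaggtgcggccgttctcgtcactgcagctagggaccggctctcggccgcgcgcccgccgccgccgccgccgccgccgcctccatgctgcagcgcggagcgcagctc
Lrrtm3, chr10:64090256-64090505, - strand: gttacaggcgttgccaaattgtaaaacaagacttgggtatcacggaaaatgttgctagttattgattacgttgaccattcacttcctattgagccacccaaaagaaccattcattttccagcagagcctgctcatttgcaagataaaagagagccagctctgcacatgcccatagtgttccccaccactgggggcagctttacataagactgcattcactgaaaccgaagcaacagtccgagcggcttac
Lrrtm1, chr6:77242227-77242476, + strand: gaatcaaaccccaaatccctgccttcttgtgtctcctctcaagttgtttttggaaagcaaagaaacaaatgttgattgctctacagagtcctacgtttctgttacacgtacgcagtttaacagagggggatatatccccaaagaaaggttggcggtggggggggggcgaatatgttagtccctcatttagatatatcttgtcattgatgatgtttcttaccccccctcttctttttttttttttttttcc
Baiap2, chr11:119942842-119943091, + strand: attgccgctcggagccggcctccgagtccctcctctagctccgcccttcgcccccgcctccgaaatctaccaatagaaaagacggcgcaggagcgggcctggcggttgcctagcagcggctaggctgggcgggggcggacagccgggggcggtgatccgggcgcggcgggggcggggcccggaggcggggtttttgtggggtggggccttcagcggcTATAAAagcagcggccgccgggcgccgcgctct
Slitrk2 upstream, chrX:66649068-66649317, + strand: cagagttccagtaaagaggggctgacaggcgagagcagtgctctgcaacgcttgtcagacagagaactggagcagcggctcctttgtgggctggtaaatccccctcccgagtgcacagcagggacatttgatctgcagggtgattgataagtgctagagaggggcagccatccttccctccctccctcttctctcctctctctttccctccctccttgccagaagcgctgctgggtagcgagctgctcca
Slitrk2 downstream, chrX:66652909-66653158, + strand: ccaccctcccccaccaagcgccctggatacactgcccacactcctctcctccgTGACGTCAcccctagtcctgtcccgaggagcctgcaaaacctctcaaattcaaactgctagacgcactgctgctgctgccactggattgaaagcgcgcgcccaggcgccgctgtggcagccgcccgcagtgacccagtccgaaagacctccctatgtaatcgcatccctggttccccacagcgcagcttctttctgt
Lrfn5 held 1 kind of motif, CAGCTG, Baiap2 held TATAAA, and the downstream Slitrk2 start held TGACGTCA; Lrrtm3, Lrrtm1 and the upstream Slitrk2 start held none of the 4. These windows held 27 (Lrfn5), 6 (Lrrtm3), 5 (Lrrtm1), 31 (Baiap2), 6 (upstream Slitrk2) and 15 (downstream Slitrk2) CG dinucleotides. Over the 51 member starts CAGATG was present in 7.84%, CAGCTG in 15.7%, TATAAA in 11.8% and TGACGTCA in 1.96%. Over all 32851 starts of the table these shares were 14.4%, 13.0%, 12.4% and 1.55%. The median number of CG dinucleotides was 9 over the member starts and 6 over all starts. None of the 4 motifs was common to the windows of Lrfn5, Lrrtm3, Lrrtm1 and Baiap2. With each motif in at most 14.4% of all starts, this says little.

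Other genes of the same synaptic machinery were taken from 2 lists that hold no member. Of 36 measured postsynaptic scaffold and signalling genes, 16 were higher in neurons and 3 in progenitors (median -0.55). Over all genes 16.2% were higher in neurons and 13.8% in progenitors. Cnih2, an auxiliary subunit of AMPA receptors, had 1859 ± 300 in progenitors and 4928 ± 852 in neurons (log2 difference -1.40 ± 0.21 SE, 2.63-fold, adjusted p = 3.89e-05). The MAGUK partner genes Frmpd4 and Lin7a were 2.81-fold and 2.75-fold higher in neurons, but near background in both groups. Tanc1, a PSD-95 binding scaffold, went the other way with 812 ± 38 in progenitors and 193 ± 10.7 in neurons (log2 difference 1.98 ± 0.20 SE, 3.96-fold, adjusted p = 1.55e-07), its neuron mean being near background, as did Magi1, a scaffold also of epithelial junctions (3.76-fold), and Iqsec1, an exchange factor for Arf6 (2.05-fold).

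Of 40 measured synapse organisers and partners, 22 were higher in neurons and 5 in progenitors (median -0.73). Clstn2, a calsyntenin gene, had 310.4 ± 64.4 in progenitors and 2097 ± 305 in neurons (log2 difference -2.70 ± 0.21 SE, 6.51-fold, adjusted p = 1.10e-08). Nptx1, which encodes a neuronal pentraxin that gathers AMPA receptors, was 5.12-fold higher in neurons with its progenitor mean near background, and Flrt3, a latrophilin ligand, 4.26-fold. Il1rap, a relative of Il1rapl1 whose neuron mean was near background (2.26-fold), Lgi2, a secreted relative of Lgi1 that was near background in both groups (2.0-fold), and Lrrn3 (1.81-fold) were higher in progenitors. Over both lists 38 of 76 genes were higher in neurons and 8 in progenitors, against 28 and 3 of the 41 members. The shares over all genes were 16.2% and 13.8%, so neither progenitor count was above its share. With the replicate block these counts were 46 and 9 of the 76, and 30 and 3 of the members. That block also raised the number past the threshold over all 19938 genes, from 5978 to 7371.

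**Figure D4:**
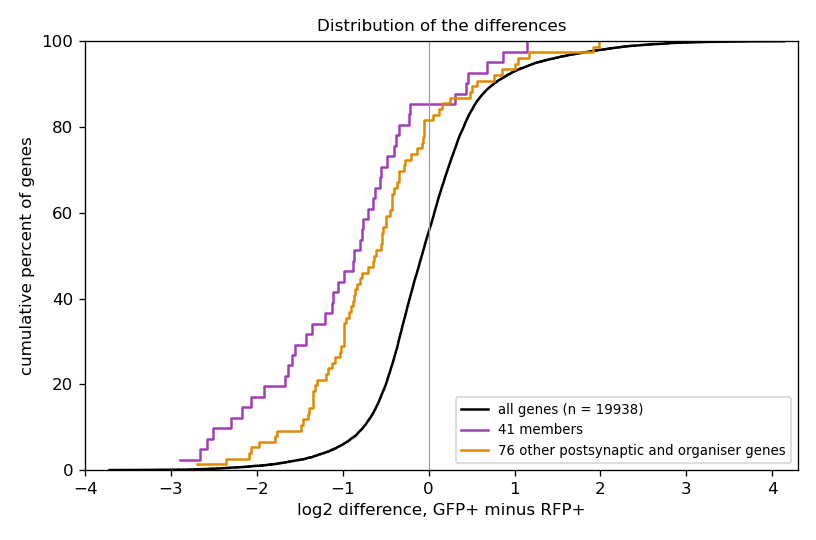
Cumulative percent of genes (vertical axis) with a log2 difference, GFP+ minus RFP+, at or under the value on the horizontal axis, for all 19938 genes (black), the 41 members (purple) and the 76 other postsynaptic and organiser genes (orange). The medians are -0.08, -0.87 and -0.63, and 35 of the 41 members have a value under 0.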

How the data were processed

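RNA of 6 sorted samples, 3 per group, was run on Affymetrix whole-transcript arrays, per the labels. The values used were probe set intensities as deposited by the authors on a linear scale; Affymetrix Expression Console is named in the submitters' processing notes, and the sources used here do not give its normalization. Of 35557 probe sets, 21789 had 1 symbol, 1621 had more than 1 and 12147 had none in the table used. No filter on dim genes was used. log2(intensity + 16) was tested with limma 3.58.1 in R 4.3.3 by a two-sided moderated test (lmFit, eBayes), with Benjamini-Hochberg adjustment over all 19938 genes; the median SE was 0.215, and 3 arrays per group limit the precision. Intervals are 95%. The code was tested on simulated data. Python 3.11.15 and matplotlib 3.10.9 were used for tables and plots.

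Members and lists were chosen with earlier results of these data known. All members are named; values on every array are given for members past the threshold that differ at least 2-fold or are higher in GFP+, and for the 4 with the smallest difference. Of the other lists, of which 76 of 84 genes were measured, the 3 with the largest passing difference each way are named. Of the listed erythroid markers 1 of 5 was measured (Alas2, near background in both groups). Titles number the replicates. Same-numbered arrays of the groups deviated together (correlations 0.204, 0.288 and 0.361 across genes), those of different numbers at -0.266 to 0.00416. Deviations from a group mean sum to 0 over its 3 arrays. Positive values for the same numbers therefore push those for different numbers down, and the latter are no independent contrast. The labels do not say what the numbers stand for. The fit without pairing was kept and pairing was an alternative. The other alternatives changed the offset, normalization, probe set rule, filter, array weights, moderation and the arrays included.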

Additional observations from a re-analysis of the deposited data

How the results depend on the processing

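Across 17 alternatives, 22 of the 31 members past the threshold kept their call and direction in every one that tested them, and 9 lost it in at least 1: Dlgap3, Dlgap4, Shank2, Gphn, Nrxn3, Lrrtm2, Slitrk2, Grip1 and Kalrn. Of the 10 that did not pass, 3 passed in some: Homer2 with the second-highest probe set (adjusted p = 0.0182), Nlgn3 and Il1rapl1. The last 2 passed with the replicate block and also in other alternatives. The replicate block gave 30 members higher in neurons and changed no other member call. Over all genes that block gave 7371 past the threshold instead of 5978. Arc and Il1rapl1 were among the dimmest 30% of genes and were not tested with that filter. Over all genes the number past the threshold, in either direction, ran from 3850 to 7371 across the alternatives. The counts below are to be read beside that range. The members higher in neurons numbered 22 to 30 and those higher in progenitors 2 to 4. Of the 76 other genes 34 to 46 were higher in neurons and 6 to 10 in progenitors. The median log2 difference of the members was -0.78 with an offset of 64. Leaving out 1 array at a time gave medians of -0.94 to -0.78 (the latter without GFP+ replicate 3) and 25 to 27 members higher in neurons. In those fits 4506 to 5566 genes passed the threshold. Leaving out both arrays numbered 1, an alternative chosen after seeing the data, gave 3850 genes past the threshold instead of 5978 and 22 members higher in neurons; it tests fewer samples. Signs turned for Shank2 (0.26), Homer2 (0.22) and Slitrk2 (-0.01) with the mean of the probe sets, and to 0.86, 0.67 and -0.88 with the second-highest probe set, also added later. Homer2 ran from -0.61 to 0.28 when 1 array was left out (0.28 without GFP+ replicate 1), and turned without both arrays numbered 1 (0.25). The cause of these turns was not tested beyond the choice of probe set or array.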
